A study of Homo sapiens with 6 samples.

Results

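The genes described here are 8 keratins of stratified epithelium, chosen by name: KRT5, KRT14 and KRT15, which are typical of the basal layer, and KRT6A, KRT6B, KRT6C, KRT16 and KRT17, which are typical of activated keratinocytes in wounds and psoriatic plaques. All 8 were found among the 20035 genes of the expression table. RNA was sequenced from HaCaT cells (labelled HACAT), an immortalized human keratinocyte line of wild-type genotype. There were 3 control libraries, whose treatment is labelled none, and 3 libraries of cells treated with palmatine, a plant alkaloid. The labels give neither the dose nor the duration. The series describes IL-17 stimulation as its model of psoriasis, but whether the control or the treated cells received IL-17 is not stated. If only the treated cells received it, palmatine and IL-17 cannot be told apart.

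Keratins build the intermediate filaments of epithelial cells, and each filament needs a type I chain paired with a type II chain. KRT5 (type II) and KRT14 (type I) form the network of proliferating basal keratinocytes, and KRT15 is a further type I keratin of basal cells and of the hair follicle bulge. KRT6A, KRT6B and KRT6C are type II keratins that pair with the type I keratins KRT16 and KRT17. The activation keratins are induced by injury, by ligands of the EGF receptor and by inflammatory cytokines, and KRT6, KRT16 and KRT17 are used as markers of the psoriatic epidermis.

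Library totals ran from 12908646 to 17218171 counts. All 12 keratinocyte markers examined were expressed well enough to be tested, with summed levels of 10884 to 11315 CPM (read counts relative to the library total, with TMM scaling between libraries) in control and 11141 to 11607 CPM in palmatine libraries. These 12 markers include KRT5 and KRT14 of the 8 keratins, which averaged 2767 and 2190 CPM over all libraries, so the sum is partly made of the genes described here. Markers of other cell types were scarce. The summed level was at most 5.88 CPM for 7 fibroblast markers and 2.67 CPM for 5 melanocyte markers, with COL1A2, DCT and TYR without a read. It was at most 24.8 CPM for 5 immune markers, of which HLA-DRA held 18.1 CPM on average, and 8.22 CPM for 4 endothelial markers.

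The basal keratins were among the most abundant transcripts of the cells. Of the activation keratins, KRT6A and KRT17 were abundant, KRT16 was low, and KRT6B and KRT6C were nearly silent by assigned reads. Ranked by mean FPKM (counts relative to the library total and the gene length), KRT14 was in place 20 of all genes, KRT5 in place 30, KRT15 in place 92, KRT6A in place 103 and KRT17 in place 247. KRT16 was in place 8823. KRT6B was in place 11801 and KRT6C in place 13924.

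KRT5, the basal type II chain, had levels of 2778, 2899 and 2774 CPM in control 1, 2 and 3 and of 2530, 2942 and 2677 CPM in palmatine 1, 2 and 3. Both the highest and the lowest value came from the palmatine group, so the groups overlapped. Its partner KRT14 had 2112, 2249 and 2374 CPM in control and 1902, 2470 and 2034 CPM in palmatine libraries. Here too palmatine 2 was the highest library and palmatine 1 the lowest. KRT15 had 1556, 1608 and 1603 CPM in control and 1412, 1624 and 1441 CPM in palmatine libraries. Its control values lay close together, and the palmatine group overlapped them through palmatine 2 alone.

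KRT6A, the main activation keratin of type II in these cells, had 678.7, 731 and 730 CPM in control and 656, 721 and 639 CPM in palmatine libraries. KRT17, a type I activation keratin that also promotes growth and inflammatory signalling, had 327, 375 and 368 CPM in control and 263, 373 and 282 CPM in palmatine libraries. For both genes palmatine 2 lay within the control range, and palmatine 1 and 3 lay below all controls. KRT16, the usual partner of KRT6 in wounded and psoriatic skin, had only 101, 90 and 73 reads in control and 83, 87 and 68 reads in palmatine libraries. In CPM these were 7.78, 5.86 and 5.83 against 4.65, 5.68 and 4.25, so that the 3 palmatine values lay below the 3 controls. The gap was narrow, and in FPKM the groups overlapped, with palmatine 2 at 2.32 and control 3 at 2.28.

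**Figure D1:**
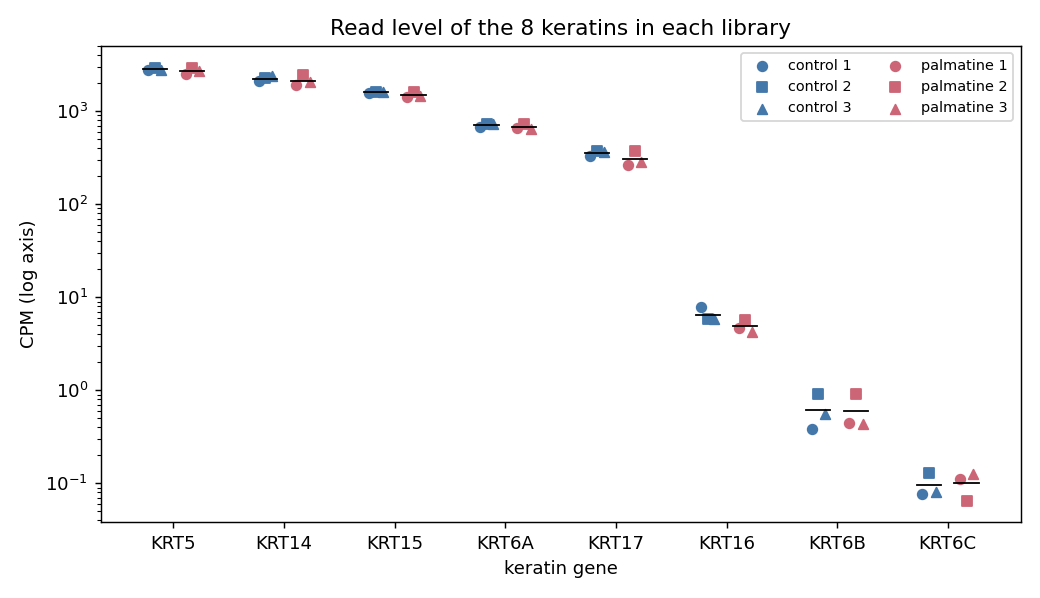
Level of each of the 8 keratins in CPM (log axis) in the 3 control (blue) and 3 palmatine libraries (red); marker shapes give the replicate number and black lines the group means. KRT5 to KRT17 lie between 263 and 2942 CPM, KRT16 between 4.25 and 7.78 CPM, and KRT6B and KRT6C below 1 CPM.

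KRT6B and KRT6C were close to the detection limit in both groups. KRT6B had 5, 14 and 7 reads in control and 8, 14 and 7 reads in palmatine libraries. KRT6C had 1, 2 and 1 reads in control and 2, 1 and 2 reads in palmatine libraries. Neither passed the filter on low counts, so neither was tested. At this depth no difference between the groups was detectable for either gene. Of the 62249 reads assigned to the 3 KRT6 genes over all libraries, 99.9% were assigned to KRT6A, 0.0884% to KRT6B (exact 95% binomial interval 0.0666% to 0.115%) and 0.0145% to KRT6C (0.00661% to 0.0274%). These intervals cover counting error only. The KRT6B share was 0.0890% in control and 0.0878% in palmatine libraries.

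The 3 KRT6 genes are close copies, so the split of reads between them depends on few bases. They lie on the minus strand of chromosome 12 (GRCh38, 9 exons each), with KRT6B at chr12:52446651-52452146, KRT6C at chr12:52468516-52473805 and KRT6A at chr12:52487176-52493257 in the table. In the coding sequence of 1695 bases (GENCODE release 29), KRT6A differed from KRT6B at 43 bases and from KRT6C at 35, and KRT6B differed from KRT6C at 26. All 3 carried the same base at 96.9% of positions. Coding bases 626 to 745, counted from the A of the start codon, are the stretch of 120 bases with the most differences. They are shown because these are the bases by which a read can be told apart; capitals mark the 10 positions at which the copies differ.
KRT6A: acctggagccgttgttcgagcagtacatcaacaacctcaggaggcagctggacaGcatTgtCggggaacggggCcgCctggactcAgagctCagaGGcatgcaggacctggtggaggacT
KRT6B: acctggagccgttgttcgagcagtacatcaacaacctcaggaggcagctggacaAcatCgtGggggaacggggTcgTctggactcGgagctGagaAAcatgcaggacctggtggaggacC
KRT6C: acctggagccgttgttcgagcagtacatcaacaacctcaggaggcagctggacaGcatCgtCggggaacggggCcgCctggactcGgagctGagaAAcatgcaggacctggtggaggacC

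Of the windows of 100 bases in the main KRT6A transcript, 18.2% also occurred letter for letter in another of the 8 keratins. The share was 24.6% for KRT6B and 31.7% for KRT6C, and at 150 bases it was 9.25%, 12.8% and 16.5%. Read length and the treatment of reads that match several genes were not given in the sources used here, so the counts of the single KRT6 genes are uncertain by the reads such windows hold. The summed count of the 3 genes does not depend on that split, but it would lack any such reads that were left uncounted. It was 679, 732 and 731 CPM in control and 656, 722 and 639 CPM in palmatine libraries, with both groups overlapping as for KRT6A alone. Its log2 fold change was -0.086 with an SE of 0.076 (edgeR, adjusted p = 0.594).

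The type I genes also share sequence. KRT14 (chr17:41582279-41586895), KRT16 (chr17:41609778-41615899) and KRT17 (chr17:41619442-41624842) lie on the minus strand of chromosome 17, each with 8 exons in the main transcript. The coding sequence of KRT14 was 88.6% identical to that of KRT16 and 85.2% identical to that of KRT17 over the aligned bases, and KRT16 and KRT17 were 81.0% identical. The longest exact match of the coding sequences of KRT14 and KRT16 spans 158 bases. It is shown, with the aligned stretch of KRT17, because reads inside it cannot be told apart between the abundant KRT14 and the scarce KRT16. It covers coding bases 310 to 467 of KRT14, 316 to 473 of KRT16 and 217 to 374 of KRT17, and capitals mark the 18 positions at which KRT17 differs from both.
KRT14: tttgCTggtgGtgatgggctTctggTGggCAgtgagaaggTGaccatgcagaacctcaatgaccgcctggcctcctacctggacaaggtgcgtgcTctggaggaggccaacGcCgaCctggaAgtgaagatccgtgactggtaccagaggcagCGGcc
KRT16: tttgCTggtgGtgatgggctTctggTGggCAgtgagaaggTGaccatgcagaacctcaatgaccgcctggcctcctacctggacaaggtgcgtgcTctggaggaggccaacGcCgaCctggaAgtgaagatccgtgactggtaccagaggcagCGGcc
KRT17: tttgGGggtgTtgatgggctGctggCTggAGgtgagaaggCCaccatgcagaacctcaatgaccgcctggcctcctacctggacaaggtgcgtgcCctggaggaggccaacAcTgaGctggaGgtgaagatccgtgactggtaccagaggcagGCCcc

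At 100 bases, 3.82% of KRT16 windows and 3.77% of KRT14 windows occurred in another of the 8 keratins, and no window of KRT17 or KRT15 did. GENCODE 29 also names 6 pseudogenes of KRT16 and 8 of KRT17, with which reads can be shared. How many reads these matches moved or left uncounted was not tested. Summed over KRT14, KRT16 and KRT17, the level was 2447, 2630 and 2748 CPM in control and 2170, 2849 and 2320 CPM in palmatine libraries. The groups overlapped, and this sum had a log2 fold change of -0.092 with an SE of 0.11 (edgeR, adjusted p = 0.695).

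The order of levels between genes depended on the gene length used. With the authors' lengths, which ran from 2255 bases for KRT14 to 5969 bases for KRT15, the mean FPKM over the 6 libraries was 969.8 for KRT14, 669 for KRT5, 258 for KRT15, 236 for KRT6A, 110.3 for KRT17, 2.28 for KRT16, 0.264 for KRT6B and 0.0337 for KRT6C. Neighbours in this order did not overlap between libraries except KRT15 (245 to 275) and KRT6A (222 to 249), although KRT15 was the higher of these in each of the 6 libraries. KRT14 stood 1.45 times above KRT5, and KRT17 48.3 times above KRT16. Divided by the length of the main transcript instead, KRT14 stood 1.20 times above KRT5, and KRT6A (mean 299) and KRT15 (mean 294) overlapped. Divided by the coding length, KRT5 and KRT14 overlapped at means of 1559 and 1541, and KRT15 rose to 1122, 2.75 times the level of KRT6A. The places of KRT17, KRT16, KRT6B and KRT6C were the same under these 3 lengths.

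**Figure D2:**
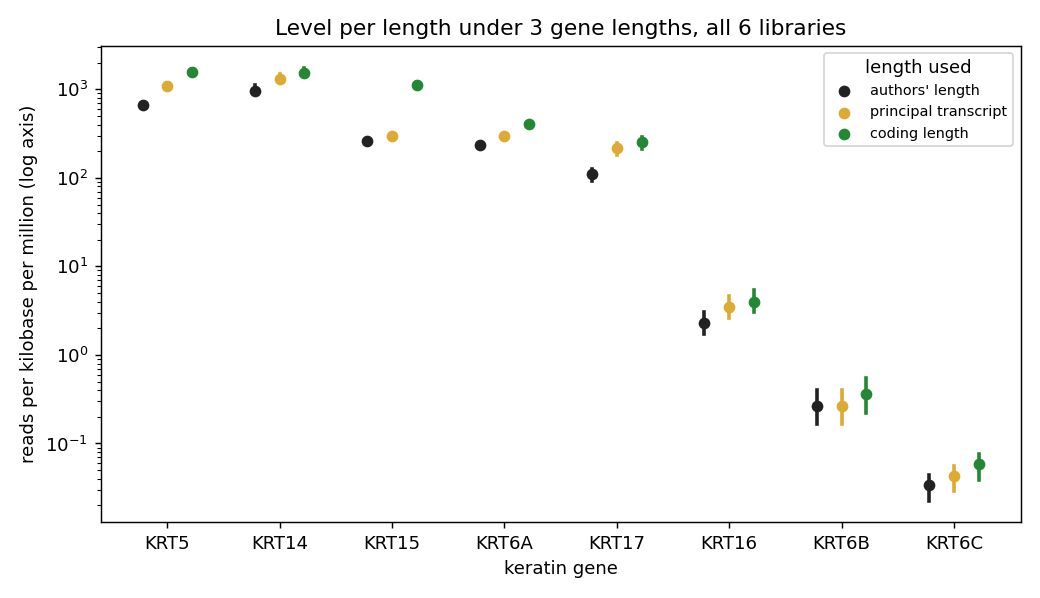
FPKM (log axis) of each keratin with the authors' gene length (black), the main transcript (yellow) and the coding length (green); points are means over the 6 libraries and lines run from the lowest to the highest library. KRT15 moves from 258 to 1122 with the length used, whereas KRT16 stays between 1.74 and 5.38.

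Palmatine was compared with control to ask whether the basal or the activation keratins differ between the treated and untreated cells. None of the 6 tested keratins passed the threshold (adjusted p of 0.05 over 12356 genes, edgeR quasi-likelihood test), where 0.0405% of tested genes did. DESeq2 called 0.113% of genes and none of these 6. All 6 log2 fold changes were below 0, with a median of -0.088 against -0.0018 over all tested genes, of which 49.6% were above 0. For 5 of the 6 the 95% interval lay within a 1.5-fold change in either direction, as it did for 79.4% of all tested genes, and for KRT16 it lay within a 2-fold change.

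Among the basal keratins, KRT5 averaged 2817 ± 71.2 CPM without and 2716 ± 209 CPM with palmatine (SD, n = 3 each). Its log2 fold change was -0.053, with a 95% interval from -0.24 to 0.13 (edgeR, adjusted p = 0.775). KRT14 averaged 2245 ± 131 and 2135 ± 297 CPM (SD, n = 3 each), and its log2 value was -0.072, interval -0.31 to 0.17 (edgeR, adjusted p = 0.759). KRT15 averaged 1589 ± 28.6 and 1492 ± 115 CPM (SD, n = 3 each), and its log2 value was -0.091, interval -0.27 to 0.088 (edgeR, adjusted p = 0.593). These 3 differences were smaller than the SD of the palmatine libraries. In bulk RNA, fewer cells that make a keratin and less of its RNA per cell cannot be told apart.

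Among the activation keratins, KRT6A averaged 713 ± 30.03 CPM without and 672 ± 43.6 CPM with palmatine (SD, n = 3 each), and its log2 fold change was -0.086, interval -0.26 to 0.084 (edgeR, adjusted p = 0.593). KRT17 averaged 357 ± 25.8 and 306 ± 58.9 CPM (SD, n = 3 each), with -0.22 and an interval from -0.50 to 0.059 (edgeR, adjusted p = 0.460). KRT16 had the largest difference of the 6, with 6.49 ± 1.11 and 4.86 ± 0.737 CPM (SD, n = 3 each) and a log2 fold change of -0.42, interval -0.79 to -0.041 (edgeR, adjusted p = 0.455, unadjusted p = 0.0333). It was the 1 keratin of 6 with an unadjusted p under 0.05, which 4.69% of tested genes reached as lower, 5.13% as higher and 9.82% in either direction. It was also the 1 keratin whose groups did not overlap in CPM, as was the case for 12.4% of tested genes, 5.71% as lower and 6.68% as higher. Against these backgrounds, 1 gene of 6 was not read as a result about the keratins. The counting error of a KRT16 library alone was about 11% (10.8% in control and 11.3% in palmatine libraries), next to a spread between replicates of 17.2% and 15.2%.

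**Figure D3:**
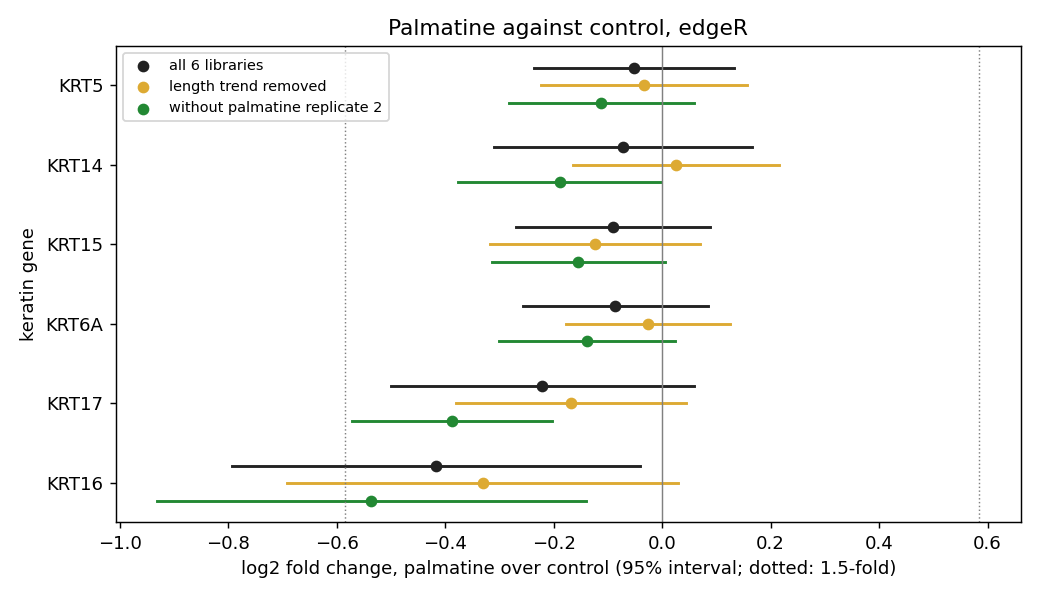
Log2 fold change of palmatine over control with its 95% interval (edgeR) for the 6 tested keratins, with all 6 libraries (black), with the gene length trend removed (yellow) and without palmatine replicate 2 (green); dotted lines mark a 1.5-fold change. With all libraries KRT16 lies at -0.42 and KRT17 at -0.22, and the other 4 genes lie between -0.091 and -0.053.

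KRT5, KRT14, KRT15, KRT6A and KRT17 had similar patterns over the 6 libraries, with pairwise Pearson correlations from 0.78 to 0.99, and KRT16 was less like them. On the log2 CPM scale centred per gene, palmatine 1 was below the gene's mean for all 6, from -0.32 for KRT17 to -0.077 for KRT6A, and palmatine 3 likewise, from -0.39 for KRT16 to -0.046 for KRT5. Palmatine 2 was above the mean for all 6, from 0.028 for KRT16 to 0.19 for KRT17, as were control 2 and control 3. Control 1 lay near the mean for 5 genes, from -0.047 to 0.017, and at 0.48 for KRT16.

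Across the 6 libraries, KRT15 and KRT17 had the most similar pattern, with a Pearson correlation of 0.992, and KRT5 and KRT14 had one of 0.879. KRT16 was the least similar, with correlations from 0.39 to 0.66 to the other 5. These values describe 6 libraries that share their scaling. The counting error of KRT16 was 10.8% in control and 11.3% in palmatine libraries, against 1.44% and 1.42% for KRT17, the next scarcest of the 6. The part of counting error in the KRT16 correlations was not tested. The first principal component of all tested genes held 51.0% of the variance. Negative scores were those of control 3 (-24.0), control 2 (-10.6) and palmatine 2 (-4.55), and positive ones those of control 1 (5.80), palmatine 3 (13.4) and palmatine 1 (19.9). Control 2, control 3 and palmatine 2 were also the libraries above the mean for all 6 keratins, and the part of this component in the keratin values was not tested.

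**Figure D4:**
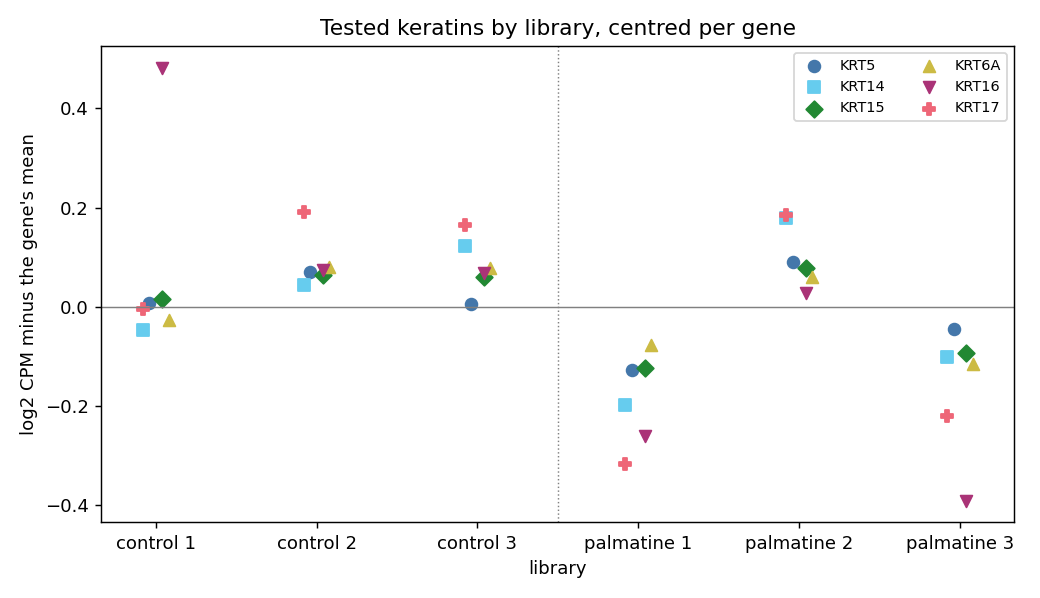
Log2 CPM of the 6 tested keratins minus the gene's mean over the 6 libraries, by library; the dotted line separates control from palmatine. Palmatine 1 and palmatine 3 lie below 0 for all 6 genes and palmatine 2 lies above 0 for all 6.

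Because palmatine 2 stood apart from the other treated libraries, the comparison was repeated without it. It was chosen for its high values of these same keratins. Leaving it out therefore lowers their fold changes by construction, and the p-values without it are no support for a difference. All log2 fold changes were then further below 0, at -0.39 for KRT17, -0.54 for KRT16, -0.19 for KRT14, -0.15 for KRT15, -0.14 for KRT6A and -0.11 for KRT5. None passed, with the smallest adjusted p at 0.131 for KRT17 (edgeR), and KRT14, KRT16 and KRT17 had an unadjusted p under 0.05, where 13.5% of tested genes did as lower and 12.5% as higher. Without palmatine 1 instead, the values were -0.0046 for KRT5, 0.0038 for KRT14, -0.053 for KRT15, -0.070 for KRT6A, -0.12 for KRT17 and -0.39 for KRT16. Gene length moved with the fold changes as well. Across the tested genes, which are not independent replicates, the Spearman correlation of log2 fold change with length was 0.443, and the 6 keratins had a median length of 2961 bases against 5480 bases over all tested genes. With the length trend of each library removed, the values were 0.025 for KRT14, -0.033 for KRT5, -0.12 for KRT15, -0.026 for KRT6A, -0.17 for KRT17 and -0.33 for KRT16. None then had an unadjusted p under 0.05 in edgeR, where 4.64% of tested genes did as higher and 741 genes as lower.

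Ratios within a library do not depend on scaling between libraries. The log2 ratio of KRT14 to KRT5 in FPKM was 0.48, 0.51 and 0.65 in control and 0.46, 0.62 and 0.48 in palmatine libraries, a difference of -0.025 (exact permutation p = 0.5, two-sided). Control 3 and palmatine 2 had the highest ratios, and the groups overlapped. The log2 ratio of the 5 activation to the 3 basal keratins was -2.44, -2.38 and -2.41 in control and -2.43, -2.48 and -2.51 in palmatine libraries, a difference of -0.062 (exact permutation p = 0.2). Palmatine 1 lay among the controls and the other two treated libraries lay below them. With the length of the main transcript the difference was -0.078, and with the coding length -0.070; all 3 treated libraries then lay below the controls (exact permutation p = 0.1 for each length). The log2 ratio of the type I to the type II members differed by -0.032 (exact permutation p = 0.5). With 3 against 3 libraries the smallest possible p is 0.1. Over these 3 ratios and the share of counts below, 4 tests in all, the smallest Benjamini-Hochberg adjusted p was 0.667 (exact permutation tests).

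Within the activation group, KRT17 stood at 0.488 ± 0.0153 of the KRT6A level in control and 0.443 ± 0.0576 in palmatine cells, in FPKM (SD, n = 3 per group), and the groups overlapped. KRT16 stood at 0.0135, 0.00946 and 0.00944 of the KRT6A level in control and at 0.00837, 0.00929 and 0.00785 in palmatine libraries. These groups did not overlap, with palmatine 2 just below control 2 and 3, and the ratio was not tested. Against KRT14, the KRT17 level was 0.117, 0.125 and 0.117 in control and 0.104, 0.114 and 0.104 in palmatine libraries, so the groups did not overlap. The KRT17 to KRT14 ratio was picked out after its values were seen. Ratios of KRT16 to KRT17 (means 0.0223 in control and 0.0193 in palmatine libraries), KRT15 to KRT5 (0.391 and 0.380) and KRT6A to KRT5 (0.358 and 0.350) were computed too. In these the groups overlapped. None of the ratios in this paragraph was tested, and how often ratios of other genes separate the groups was not examined.

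The 8 keratins held 0.735%, 0.770% and 0.762% of all counts in control and 0.702%, 0.823% and 0.7196% in palmatine libraries. The means were 0.756% ± 0.0186 and 0.748% ± 0.0655 (SD, n = 3 each; p = 0.9 by exact permutation), and palmatine 2 was the highest library. As a share of summed FPKM the direction was the opposite, with 0.810% ± 0.0130 in control and 0.882% ± 0.0597 in palmatine libraries and no overlap. The summed FPKM of a library, the denominator, was 273747 to 282641 in control and 244667 to 260994 in palmatine libraries. Among the reads of the 8 keratins, KRT5 made up 36.5% ± 1.02 and 37.1% ± 0.864, KRT14 29.04% ± 1.04 and 29.1% ± 1.16, KRT15 20.6% ± 0.254 and 20.4% ± 0.453, KRT6A 9.23% ± 0.113 and 9.19% ± 0.438, and KRT17 4.61% ± 0.199 and 4.15% ± 0.379, in control and palmatine cells in turn (SD, n = 3 per group). For these 5 genes the groups overlapped. KRT16 made up 0.0843% ± 0.0173 and 0.0661% ± 0.00536, and its groups did not overlap.

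The other keratins examined lay lower in palmatine on average without passing the test. The list held 19 of the 47 further keratin genes of the table, and the rest were not examined. Of the 19 listed, 12 were tested and 0 passed. Of these, 10 had a negative log2 fold change, with a median of -0.22, and 4 had an unadjusted p under 0.05 in edgeR, all lower, where 4.69% of tested genes did as lower. They were KRT18 and KRT8, a pair of simple epithelia, at -0.31 and -0.25, and KRT4 and KRT13, which belong to mucosal epithelia, at -0.37 and -0.22, each with an adjusted p of 0.455. KRT18 had 163, 168 and 180 CPM in control and 125, 158 and 129 CPM in palmatine libraries, so its groups did not overlap. The same held for KRT4, and for 3 of these 12 genes in all, against 12.4% of all tested genes. The median length of these 12 genes was 2683 bases. With the length trend removed the median was -0.13, with 10 genes negative. Without palmatine 2 it was -0.33, with 0 called and 8 genes lower at an unadjusted p under 0.05 in edgeR, against 13.5% of tested genes. Palmatine 2 was left out for its high values of the basal and activation keratins, so these counts are no support for a difference either. KRT1 and KRT10, the suprabasal pair of differentiating epidermis, were at 0.794 and 18.1 FPKM on average, far below KRT5 and KRT14.

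Keratin filament linkers and binding partners, among them proteins of desmosomes and hemidesmosomes, lay higher on average. All 15 were tested and 0 passed; 13 had a positive log2 fold change, with a median of 0.16, and 1 had an unadjusted p under 0.05 as higher in edgeR, against 5.13% of tested genes. EVPL (envoplakin, a plakin of the cornified envelope) had a value of 0.28, ITGB4 (the integrin chain of hemidesmosomes) 0.28, DSP (desmoplakin, which anchors keratins at desmosomes) 0.38 and PKP1 (plakophilin 1) 0.20, each with an adjusted p of 0.455. DSP had 916, 705 and 600 CPM in control and 1101, 749 and 1031 CPM in palmatine libraries, and control 1 overlapped the treated range. Palmatine 2 was again the treated library nearest to control 2 and 3. The 15 genes had a median length of 7699 bases, and with the length trend removed their median was 0.10, with 11 positive. Without palmatine 2 it was 0.25, with 6 genes higher, 2 genes lower (unadjusted p under 0.05 in edgeR) and 0 called, where 12.5% of tested genes were higher and 13.5% lower by that rule. As palmatine 2 was chosen after its keratin values were seen, these counts are no support for a difference.

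Transcription factors reported to bind or regulate keratin genes showed no common direction. Of 27 genes 26 were tested and 0 passed, with 16 positive and 10 negative values and a median of 0.029; in edgeR 1 was higher and 2 were lower at an unadjusted p under 0.05, against 5.13% and 4.69% of tested genes. CEBPA, a factor of keratinocyte differentiation, had 3.46, 4.03 and 3.60 CPM in control and 1.23, 2.94 and 1.87 CPM in palmatine libraries, with a log2 value of -0.90 and an SE of 0.27 (edgeR, adjusted p = 0.455). All treated values lay below the controls, at a level of few reads. TP63, the master regulator of stratified epithelium that activates KRT5 and KRT14, had 505, 496 and 486 CPM in control and 575, 517 and 555 CPM in palmatine libraries. The groups did not overlap, as for 5 of the 26 tested genes of this list and 12.4% of all tested genes. The log2 fold change of TP63 was 0.15 (adjusted p = 0.455 in edgeR). The AP-1 members FOSL2 and FOSL1 had values of 0.22 and -0.19, also with an adjusted p of 0.455.

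Signals upstream of the activation keratins likewise did not pass. All 18 genes were tested, with 0 called, 8 positive and 10 negative values and a median of -0.052; in edgeR 1 was higher and 3 were lower at an unadjusted p under 0.05, against 5.13% and 4.69% of tested genes. The cytokine IL1A, which induces KRT6 in keratinocytes, had 22.9, 23.7 and 26.1 CPM in control and 21.4, 18.7 and 17.0 CPM in palmatine libraries. Its groups did not overlap, as for 7 of these 18 genes and 12.4% of all tested genes. The log2 fold change of IL1A was -0.35 (adjusted p = 0.455 in edgeR). The related IL1B was at -0.45, AREG, a ligand of the EGF receptor, at -0.30 and the receptor chain IL17RA at 0.21, each with an adjusted p of 0.455.

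Of 10 genes for keratin chaperones and turnover, all were tested and 0 passed, with a median of -0.025. In edgeR 1 had an unadjusted p under 0.05 as higher and 1 as lower, against 5.13% and 4.69% of tested genes. The lower gene was SQSTM1, a cargo receptor of autophagy found in keratin aggregates, with 537, 594 and 640 CPM in control and 432, 525 and 447 CPM in palmatine libraries. Its log2 fold change was -0.33 (adjusted p = 0.455 in edgeR), and its groups did not overlap. That was so for 2 of these 10 genes and 12.4% of all tested genes. The higher gene was the kinase PRKCE at 0.36. The chaperone HSPA8 had a value of -0.15 and the ubiquitin-conjugating enzyme UBE2D1 one of -0.13 (adjusted p = 0.495 and 0.594 in edgeR).

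The genes outside the keratin family with the pattern most like that of the basal keratins over the 6 libraries were LYPLA2, MAF1 and CDCA7L, with Pearson correlations of 0.998, 0.996 and 0.995 to the mean centred log2 CPM of KRT5, KRT14 and KRT15. For the mean of KRT6A, KRT16 and KRT17 they were TAP1, EEFSEC and PPP1R15A, with correlations of 0.997, 0.996 and 0.995. Such likeness was common: 838 tested genes, or 6.78%, had a correlation above 0.9 to the basal mean and 313, or 2.53%, to the activation mean. Their log2 fold changes were small, from -0.15 for PPP1R15A to -0.064 for CDCA7L.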

How the data were processed

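Poly(A) RNA of 6 HaCaT libraries was sequenced; groups and replicate numbers follow the labels. The authors deposited raw counts and FPKM per gene, per the file headers. The submitters' processing notes list HISAT2 2.1.0 and HTSeq 0.9.1. Build, annotation, strand setting and handling of multiply matching reads were not given in the sources used here. Each FPKM above 0 was the count over the authors' gene length and library total (100% within a relative tolerance of 1e-05). All 8 genes overlapped their GENCODE 29 locus on the same strand, so coordinates are read as GRCh38. One emptied table line was not analysed here.

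Genes passing filterByExpr (minimum count 10; 12356 genes) were scaled by TMM (factors 0.970 to 1.04) and tested with the quasi-likelihood test of edgeR 4.0.16 in R 4.3.3, without covariates, at a Benjamini-Hochberg adjusted p of 0.05. CPM use TMM-scaled totals. Standard errors derive from the F statistic. Ratios and shares were compared by exact permutation (scipy 1.17.1). Separate cultures are not stated for the replicates, so the p-values reflect only the spread among these libraries, which may be technical. Sequences are the GENCODE 29 principal coding transcripts, found for 8 of 8 genes. The scripts' fits were checked on simulated data. The 8 genes, lists and tests were chosen with earlier results of these data known. All 8 genes were named, with up to 4 genes of smallest p per list and the 3 non-keratin genes most like each keratin group. Alternatives were DESeq2 1.42.0, limma 3.58.1, other scalings, filters and units, loess trend removal (span 0.3), a replicate block and libraries left out.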

Additional observations from a re-analysis of the deposited data

How the results depend on the processing

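No tested keratin, and neither of the summed counts, was called under any of the 22 alternatives to its test. KRT15, KRT6A, KRT16 and KRT17 kept a negative log2 fold change under all 22, with KRT16 from -0.54 to -0.24, KRT17 from -0.39 to -0.12, KRT15 from -0.15 to -0.028, KRT6A from -0.14 to -0.023 and the KRT6 sum from -0.14 to -0.023. The values nearest 0 of KRT15, KRT6A and the KRT6 sum came with library size alone. Without palmatine replicate 1, KRT5 was at -0.0046. The sign of KRT5 was positive with library size alone (0.010) and with limma on FPKM (0.0084 at a pseudocount of 1, with and without a filter, and 0.0084 at 0.1). The sign of KRT14 was positive with the length trend removed (0.025, and 0.023 with a replicate block) and without palmatine replicate 1 (0.0038), and that of the KRT14, KRT16 and KRT17 sum with the length trend removed (0.0047, and 0.0021 with a replicate block). The cause was not tested. Other gene lengths for the ratios, and the lists without palmatine 2 or the length trend, were alternatives chosen after seeing the data.

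Leaving out 1 library at a time gave -0.19 to 0.0038 for KRT14, -0.22 to -0.014 for that sum, -0.14 to -0.050 for the KRT6 sum, -0.075 to 0.028 for the KRT14 to KRT5 ratio, -0.079 to 0.0046 for the type I to type II ratio, -0.083 to -0.042 for the activation to basal ratio and -0.0448 to 0.0158 percentage points for the share of counts. As a share of summed FPKM the last difference was 0.0716 points. The number of genes called lower, 5 with all libraries, was 5 to 6 with 1 library left out. It was 14 with DESeq2, 7 with upper quartile factors, 8 without a filter, 8 with the length trend removed and 9 with the replicate block. The number was 3 without the 10 most abundant genes, 3 with unfiltered FPKM and 1 without mitochondrially encoded genes. It was 23, with 3 called higher, for the replicate block with the length trend removed; otherwise 0 were higher, where 634 genes had an unadjusted p under 0.05 in edgeR.

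Whether the shared replicate numbers pair the libraries was not tested. Deviations from the group means correlated at 0.399, 0.178 and -0.0963 for numbers 1, 2 and 3. Control 1 and control 2 correlated best with the palmatine library of their number, whereas control 3 correlated best with palmatine 2 (0.323). With the replicate block, KRT16 had a log2 fold change of -0.42 and KRT17 one of -0.23 (edgeR adjusted p = 0.198 and 0.164), the KRT6 sum one of -0.087 and the KRT14, KRT16 and KRT17 sum one of -0.10. Depth limits KRT6B, KRT6C and KRT16, and for the other keratins the 3 libraries per group set the precision.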
